A study of Mus musculus with 8 samples.

Results

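The expression of 43 genes that encode lysine acetyltransferases, deacetylases and bromodomain readers was compared between wild-type and Crebbp+/- haematopoietic stem cells of mouse fetal liver. The genes were taken from a fixed list by symbol, but the list was chosen with earlier results of these data known. It held 17 acetyltransferases and coactivators, 11 zinc-dependent deacetylases, 7 sirtuins and 8 bromodomain and BRPF proteins. The genes were covered by 94 probe sets, and all 43 were among the 10600 genes with a probe set that passed the filter on dim signal. Cells sorted as Sca-1+, Lin-, AA4.1+ and c-Kit++ came from C57BL/6 embryos, with 15 embryos pooled per preparation and the age given as 14.5 dpc in one label and 14 dpc in another. The 2 groups were wild type and Crebbp+/-, with 2 numbered samples each and 2 arrays per sample, made from 12 ng of amplified total RNA. The labels describe no allele beyond Crebbp+/- and no treatment, and the part of Crebbp that the mutant allele lacks is not given in them. The heterozygous genotype was not limited to blood cells by any promoter or Cre named in the labels.

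Lysine acetyltransferases transfer acetyl groups from acetyl-CoA to lysines of histones and other proteins, deacetylases remove them, and bromodomains bind acetylated lysine. CBP, the product of Crebbp, and its paralog encoded by Ep300 are acetyltransferases that also carry a bromodomain and are recruited to genes by many transcription factors, CREB among them. In blood formation CBP is known for a role in stem cell maintenance, and Kat6a, encoding MOZ, is required for fetal haematopoietic stem cells.

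Promoter sequence was available for 35 of the 43 genes, as RefSeq windows of the GRCm38.p6 build, of which the 250 bases before the annotated start were read. CREB binds the cAMP response element, TGACGTCA, whose core is TGACG, or CGTCA on the opposite strand. The full element was in 0 of the 50 windows of these genes and in 1.55% of the 32851 windows of all genes. The core was in 14 of the 50 windows (28%), which belonged to 13 genes, against 17.8% of all windows. These are matches of letters only, the windows of a gene can overlap, and no binding was measured. The windows of Crebbp, the gene with 1 mutant copy, and of Ep300, its paralog, are shown with those of Hdac4 and Sirt1, a deacetylase of each kind described below. Capitals mark the core element, which Crebbp and Ep300 lack here, Sirt1 has once and Hdac4 has 2 times.

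Crebbp (chr16:4213405-4213654, minus strand): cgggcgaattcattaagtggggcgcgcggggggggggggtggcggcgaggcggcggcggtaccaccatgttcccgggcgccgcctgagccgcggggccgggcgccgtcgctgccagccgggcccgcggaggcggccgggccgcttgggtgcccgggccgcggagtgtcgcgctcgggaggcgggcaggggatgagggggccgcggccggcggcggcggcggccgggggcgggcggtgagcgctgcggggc

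Ep300 (chr15:81585964-81586213, plus strand): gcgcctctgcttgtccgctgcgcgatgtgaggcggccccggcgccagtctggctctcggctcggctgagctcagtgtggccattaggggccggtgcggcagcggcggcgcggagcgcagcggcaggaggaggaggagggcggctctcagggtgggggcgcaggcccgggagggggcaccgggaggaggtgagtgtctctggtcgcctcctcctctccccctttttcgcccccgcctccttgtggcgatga

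Hdac4 (chr1:92180342-92180591, minus strand): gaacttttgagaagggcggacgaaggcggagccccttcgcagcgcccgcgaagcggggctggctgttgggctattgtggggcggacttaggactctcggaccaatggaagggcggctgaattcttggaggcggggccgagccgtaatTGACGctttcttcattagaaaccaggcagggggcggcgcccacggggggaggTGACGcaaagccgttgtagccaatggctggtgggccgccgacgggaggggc

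Sirt1 (chr10:63339036-63339285, minus strand): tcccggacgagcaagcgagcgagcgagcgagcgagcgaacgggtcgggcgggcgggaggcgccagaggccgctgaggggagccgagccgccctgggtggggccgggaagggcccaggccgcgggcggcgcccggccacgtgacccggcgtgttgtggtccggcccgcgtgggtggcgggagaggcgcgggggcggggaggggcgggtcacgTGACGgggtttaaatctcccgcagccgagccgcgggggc

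Kat6a, Ncoa2, Ncoa3, Elp3, Hdac1, Hdac3, Hdac10 and Brd8 had no window in the table.

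Values are GCRMA log2 signals, and a difference is the Crebbp+/- signal minus that of wild type, given with the standard error (SE) and 95% confidence interval from limma, a linear model fitted over all probe sets. The array medians lay between 2.65 and 2.70. Of 10 genes listed for the sorted stem and progenitor cells, 9 were named on the array, all above the filter of 2.72, and their mean signal was 10.53 and 10.19 for the wild-type samples against 10.29 and 10.08 for the Crebbp+/- samples. Hepatocyte genes had 5 of 7 members above the filter, and their mean signal was 2.92 for wild-type sample 1, 5.89 for wild-type sample 2, and 5.0 and 5.32 for the Crebbp+/- samples. Of the other lists, 1 of 5 erythroid genes, 5 of 8 mature myeloid genes, 3 of 6 lymphoid genes, 2 of 6 endothelial genes and 1 of 4 mast cell genes were above the filter. In that order, the mean signals of these lists spanned 2.33 to 2.35, 5.78 to 5.88, 3.65 to 3.87, 4.0 to 4.07 and 2.43 to 2.56 in the wild-type samples. The Crebbp+/- samples spanned 2.51 to 2.54, 5.62 to 5.66, 3.95 to 3.98, 3.89 to 3.98 and 3.02 to 3.06. The Gapdh control's 5' signal, measured against its 3' signal, was lower in both samples numbered 2 (-2.59 and -1.89) than in both numbered 1 (-1.22 and -0.89). The part of other cell types or of RNA quality in the differences below was not tested. In sorted cells, fewer cells of a type and less RNA per cell cannot be told apart.

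None of the 43 genes differed between the genotypes past the test. With limma and Benjamini-Hochberg adjustment over all probe sets, 0 of 43 had an adjusted p under 0.05, as did 0 of the 10600 genes tested (0%), and the lowest adjusted p of the 43 was 0.991. At an unadjusted limma p under 0.05 the count was also 0 of 43, against 283 of 10600 genes (2.67%), 1.39% higher and 1.28% lower in Crebbp+/-. Without wild-type sample 1 the count was 1 of 43 (Ncoa1, adjusted p = 0.631), against 5.34% of all genes. The difference was positive for 23 of the 43 (53.5%), against 56.9% of all genes, and the median over the 43 was 0.010, against 0.042. Differences ran from -0.45 for Hdac7 to 0.74 for Ncoa1.

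The intervals limit how large a change could have gone unseen. For 26 of the 43 genes the whole interval at the brightest probe set lay between -1 and 1, that is, within a 2-fold change in either direction. The share over all genes was not counted. The 26 include Hdac11, whose signal did not vary. They also include Kat6a and Brd8, for which the interval of a dimmer probe set reached down to -1.58 and -1.90. It reached -1 or lower for 9 genes and 1 or higher for 12, with Clock, Elp3 and Kat2a among those wide on both sides. The median SE over the 43 was 0.28. The 2 arrays of a sample differed by a median of 0.23, the samples numbered 1 and 2 of a genotype by 0.36 and the genotypes by 0.15. Over all genes the same medians were 0.25, 0.33 and 0.18. For 32 of the 43 genes the average gap between same-genotype samples was larger than the difference between genotypes. The share over all genes was not counted. Single samples vary more than means of 2 samples, so these larger gaps, in the medians too, are not a result about the 43 genes. The smallest p that an exact permutation test, two-sided, can give for 2 samples per genotype is 0.33.

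**Figure D1:**
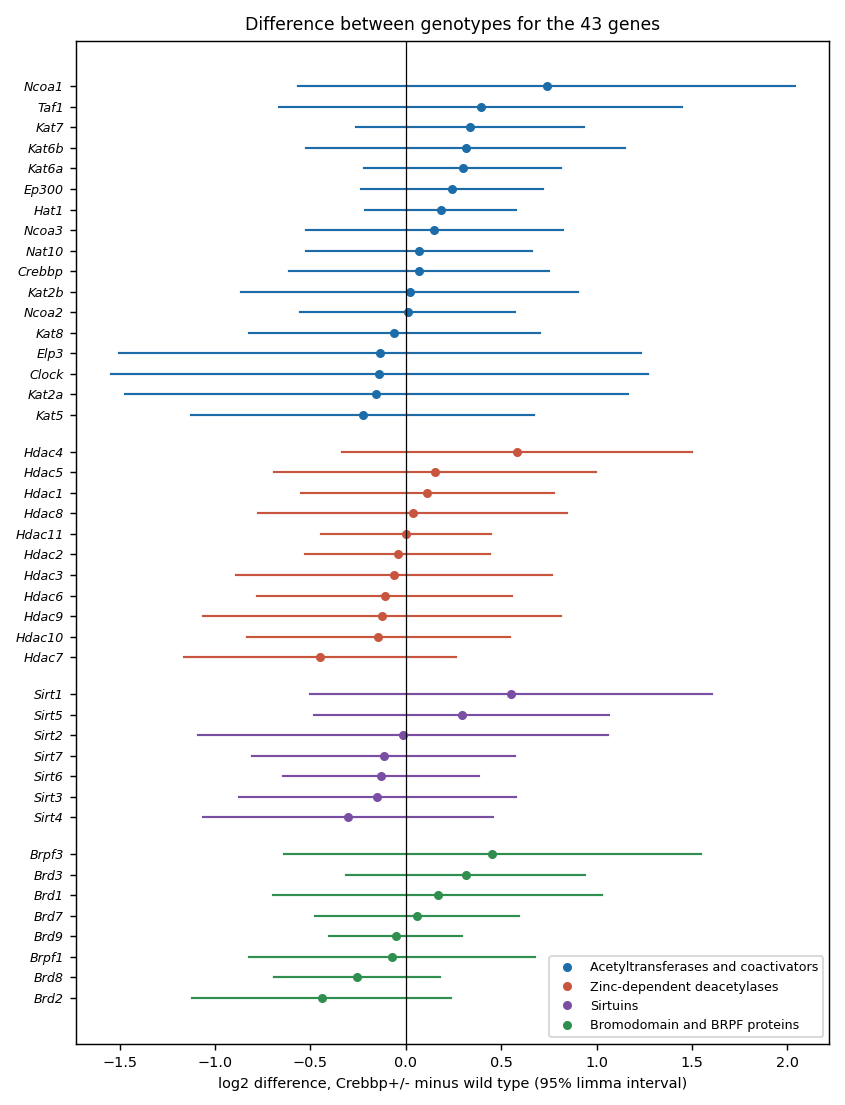
Log2 difference, Crebbp+/- minus wild type (horizontal axis), for each of the 43 genes (vertical axis), with points for the limma estimate and lines for its 95% confidence interval, coloured by role. Every interval crosses 0, and the estimates run from -0.45 for Hdac7 to 0.74 for Ncoa1.

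Crebbp itself, the gene with the mutant copy, gave a strong signal in both genotypes. Its brightest probe set read 12.07 and 11.41 in wild-type samples 1 and 2, and 11.95 and 11.66 in the Crebbp+/- samples. The Crebbp+/- arrays, from 11.56 to 11.96, lay wholly inside the wild-type range of 11.41 to 12.17. The difference was 0.07 (SE 0.26, interval -0.62 to 0.75). Its sign depended on single samples, with 0.395 without wild-type sample 1, -0.26 without wild-type sample 2 and -0.079 without Crebbp+/- sample 1, and it was -0.174 when the gene's 4 tested probe sets were averaged. A dimmer probe set of Crebbp read 7.0 and 6.88 in wild-type samples 1 and 2 and 6.31 and 6.72 in Crebbp+/-, a difference of -0.42 (interval -1.19 to 0.34, limma adjusted p = 0.991). The other probe sets of Crebbp differed by 0.01 (interval -1.26 to 1.29) and -0.35 (interval -0.98 to 0.28). The intervals of 2 of the 4 probe sets thus reached -1, a signal lowered 2-fold. Where the probe sets lie relative to the altered part of the gene is not known. Their signals therefore cannot be assigned to the normal or the mutant allele.

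Ep300, with a single probe set, read 9.14 and 9.19 in wild type and 9.39 and 9.43 in Crebbp+/-. Its 4 Crebbp+/- arrays, from 9.33 to 9.45, all lay above the 4 wild-type arrays, which reached from 8.97 to 9.31, so the groups did not overlap. The difference was 0.24 (SE 0.18, 95% confidence interval -0.24 to 0.72, limma adjusted p = 0.991), 0.25 between the samples numbered 1 and 0.23 between those numbered 2. Without the first array of wild-type sample 1 it was 0.158. Over all genes, 3.68% had all Crebbp+/- arrays above all wild-type arrays and 1.99% had them below. Of the 43, 1 was higher in that way, Ep300, and 1 lower, Hdac7. With arrays centred on their medians the count of such genes was 1, and with 1 sample left out it was 15, 8, 7 and 15 without wild-type samples 1 and 2 and Crebbp+/- samples 1 and 2. Those counts compare fewer arrays, and the shares over all genes were then 32.9%, 18.6%, 17.0% and 28.1%.

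The MYST family of acetyltransferases comprises Kat5, Kat6a, Kat6b, Kat7 and Kat8. Kat6a read 10.15 and 9.83 in wild-type samples 1 and 2 and 10.38 and 10.20 in the Crebbp+/- samples. Both Crebbp+/- samples were above both wild-type samples, but the arrays overlapped: wild type spanned 9.76 to 10.30 and Crebbp+/- 10.17 to 10.42. The difference was 0.30 (SE 0.20, interval -0.22 to 0.81, limma adjusted p = 0.991). It was 0.14 without wild-type sample 2 and 0.46 without wild-type sample 1, and turned to -0.25 with both tested probe sets averaged. Kat7, encoding HBO1, read 9.22 and 8.81 against 9.38 and 9.31, a difference of 0.34 (SE 0.23), and Kat6b, encoding MORF, differed by 0.31 (SE 0.32). Kat5, encoding TIP60, an acetyltransferase of the DNA damage response, read 10.27 and 9.49 in wild type and 9.40 and 9.90 in Crebbp+/-. It was lower in Crebbp+/- between the samples numbered 1 (-0.87) and higher between those numbered 2 (0.41), so its mean difference of -0.23 (SE 0.34) joined opposite values. Kat8, encoding MOF, differed by -0.06 (SE 0.29).

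The p160 coactivators Ncoa1, Ncoa2 and Ncoa3 bind nuclear receptors and recruit CBP. Ncoa1 had the largest positive difference of the 43. It read 7.30 and 6.06 in wild-type samples 1 and 2, and 7.67 and 7.16 in the Crebbp+/- samples. Wild-type sample 2 stood lowest, and the arrays of the genotypes overlapped: wild type spanned 5.80 to 7.55 and Crebbp+/- 7.01 to 7.70. The difference was 0.74 (SE 0.50, interval -0.57 to 2.04, limma adjusted p = 0.991), smaller than the wild-type SD of 0.87 (n = 2), and it was 0.38 within number 1 and 1.10 within number 2. Leaving out wild-type sample 2 gave 0.12, Crebbp+/- sample 1 gave 0.48 and wild-type sample 1 gave 1.35, and the difference was 0.45 with its 2 tested probe sets averaged. Ncoa2 and Ncoa3 differed by 0.01 (SE 0.22) and 0.15 (SE 0.26).

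Kat2a and Kat2b, the catalytic subunits of SAGA-type complexes, differed by -0.16 (SE 0.50) and 0.02 (SE 0.34). Kat2b was 0.54 higher between the samples numbered 1 and differed by -0.50 between those numbered 2. Taf1, the largest subunit of TFIID, which carries bromodomains, read 9.71 and 8.83 in wild type and 10.01 and 9.32 in Crebbp+/-. In each genotype its sample 2 was the lower, and the difference of 0.39 (SE 0.40) was smaller than that gap. Hat1, which acetylates newly made histones, differed by 0.18 (SE 0.15), with 0.19 and 0.18 within the 2 numbers. Nat10, which acetylates cytidine in RNA, Elp3, the catalytic subunit of Elongator, and Clock, a circadian transcription factor, differed by 0.07, -0.13 and -0.14. Over the 17 acetyltransferases and coactivators, 12 differences were positive (70.6%, against 56.9% of all genes) and 5 negative. The median was 0.068, against 0.042 over all genes.

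Zinc-dependent deacetylases had a median difference of -0.042, with 5 positive (45.5%, against 56.9% of all genes) and 6 negative values. Class I enzymes had estimates near 0. Those of Hdac1, Hdac2 and Hdac3, the catalytic subunits of nuclear corepressor complexes, and of Hdac8 were 0.11 (SE 0.25), -0.04 (SE 0.19), -0.06 (SE 0.32) and 0.04 (SE 0.31) in that order. The interval of Hdac2 ran from -0.53 to 0.44. Both ends of the deacetylase range belonged to class IIa, enzymes that shuttle between nucleus and cytoplasm.

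Hdac4 of class IIa read 7.45 and 6.74 in wild-type samples 1 and 2, and 7.86 and 7.50 in the Crebbp+/- samples. Both Crebbp+/- samples were above both wild-type samples, while single arrays overlapped, since 1 Crebbp+/- array read 7.20 and the wild-type arrays reached 7.47. The difference was 0.58 (SE 0.35, interval -0.33 to 1.5, limma adjusted p = 0.991), with 0.41 in sample number 1 and 0.76 in number 2. Without wild-type sample 2 it was 0.23, and without wild-type sample 1 it was 0.94.

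Hdac7, the other end of the range, read 7.27 and 6.97 in wild type and 6.62 and 6.72 in Crebbp+/-. All its Crebbp+/- arrays, from 6.48 to 6.77, were below all wild-type arrays, from 6.84 to 7.70, and wild-type sample 1 supplied both the highest and the lowest wild-type array. The difference was -0.45 (SE 0.27, interval -1.16 to 0.26, limma adjusted p = 0.991), with -0.65 and -0.25 within the samples numbered 1 and 2. It was -0.233 without the first array of wild-type sample 1, -0.297 without that sample and -0.249 with both probe sets averaged. Hdac5 differed by 0.15 (SE 0.32), and Hdac9 by -0.12 (SE 0.36). Hdac9 took opposite values within number 1 (-0.74) and number 2 (0.49), and its 2 arrays of wild-type sample 1 read 3.25 and 5.6.

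Of class IIb, Hdac6, which deacetylates tubulin, differed by -0.11 (SE 0.26) and Hdac10, a polyamine deacetylase, by -0.14 (SE 0.26). Hdac11, the sole class IV enzyme, read between 2.91 and 2.92 on all 8 arrays, so its probe set passed the filter without varying, and its difference of 0.00 is not informative.

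Sirtuins, the NAD-dependent deacetylases and deacylases, had a median difference of -0.12, against 0.042 over all genes. Positive values numbered 2 (28.6%, against 56.9% of all genes) and negative values 5. Sirt1, a nuclear enzyme that acts on histones and transcription factors, read 8.2 and 7.38 in wild-type samples 1 and 2 and 8.66 and 8.01 in the Crebbp+/- samples. Within each genotype sample 2 was the lower, and Crebbp+/- sample 2 lay below wild-type sample 1, so the groups overlapped. The difference was 0.55 (SE 0.40, interval -0.50 to 1.60, limma adjusted p = 0.991), with 0.47 and 0.63 within the samples numbered 1 and 2. Leaving out wild-type sample 2 gave 0.142 and Crebbp+/- sample 1 gave 0.225, while leaving out wild-type sample 1 gave 0.959 and Crebbp+/- sample 2 gave 0.876.

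Sirt4, a mitochondrial sirtuin, read 6.40 and 6.06 in wild type and 5.98 and 5.88 in Crebbp+/-. Its wild-type arrays, from 5.65 to 6.79, spanned all Crebbp+/- arrays, from 5.72 to 6.04. The difference was -0.30 (SE 0.29, interval -1.06 to 0.46, limma adjusted p = 0.991). Without single wild-type arrays it ranged from -0.51 (sample 2 array 2) to -0.095 (sample 2 array 1), with -0.11 and -0.495 without arrays 1 and 2 of sample 1. Without wild-type sample 1 it was -0.13 and without sample 2 -0.47. The mitochondrial Sirt3 and Sirt5 differed by -0.15 (SE 0.28) and 0.29 (SE 0.30), the mainly cytoplasmic Sirt2 by -0.02 (SE 0.41), and the nuclear Sirt6 and nucleolar Sirt7 by -0.13 (SE 0.20) and -0.12 (SE 0.26).

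Bromodomain and BRPF proteins had a median difference of 0.003, with 4 positive (50%, against 56.9% of all genes) and 4 negative values. Brd2, a BET protein that binds acetylated histone H4, read 7.53 and 7.86 in wild-type samples 1 and 2 and 7.25 and 7.26 in the Crebbp+/- samples. Both Crebbp+/- samples were below both wild-type samples, but the arrays overlapped: wild type spanned 7.34 to 8.25 and Crebbp+/- 7.09 to 7.43. The difference was -0.44 (SE 0.26, interval -1.12 to 0.24, limma adjusted p = 0.991), with an unadjusted p of 0.153 in limma, the lowest of the 43. The other probe set of Brd2 differed by -0.05 (SE 0.29), and this was the gene's value when probe sets that can match several transcripts were left out. With both averaged it was -0.248, at the brightest it was -0.277 without wild-type sample 2, and it was -0.246 without the second array of that sample. Brd3, another BET protein, differed in the opposite direction, by 0.31 (SE 0.24), with 0.22 and 0.40 within the samples numbered 1 and 2.

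Brd8, a subunit of the TIP60 complex, read 11.18 and 10.90 in wild type and 10.76 and 10.80 in Crebbp+/-. Both Crebbp+/- samples were below both wild-type samples, while the arrays overlapped: wild type spanned 10.75 to 11.23 and Crebbp+/- 10.62 to 10.99. The difference was -0.26 (SE 0.17, interval -0.69 to 0.18, limma adjusted p = 0.991). It was -0.116 without wild-type sample 1, -0.4 without wild-type sample 2 and -0.165 without the first array of Crebbp+/- sample 2. Brd7 and Brd9, subunits of PBAF and of the non-canonical BAF complex, differed by 0.06 (SE 0.20) and -0.05 (SE 0.13). The interval of Brd9, -0.41 to 0.30, was the narrowest of the 43.

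Brd1, Brpf1 and Brpf3 are among the scaffolds that join MYST acetyltransferases to chromatin. Brpf3 read 9.58 and 8.69 in wild type and 9.96 and 9.21 in Crebbp+/-, a difference of 0.45 (SE 0.42). In each genotype its sample 2 was lower than its sample 1, by more than the genotypes differed. Brd1 differed by 0.17 (SE 0.33) and Brpf1 by -0.07 (SE 0.29).

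**Figure D2:**
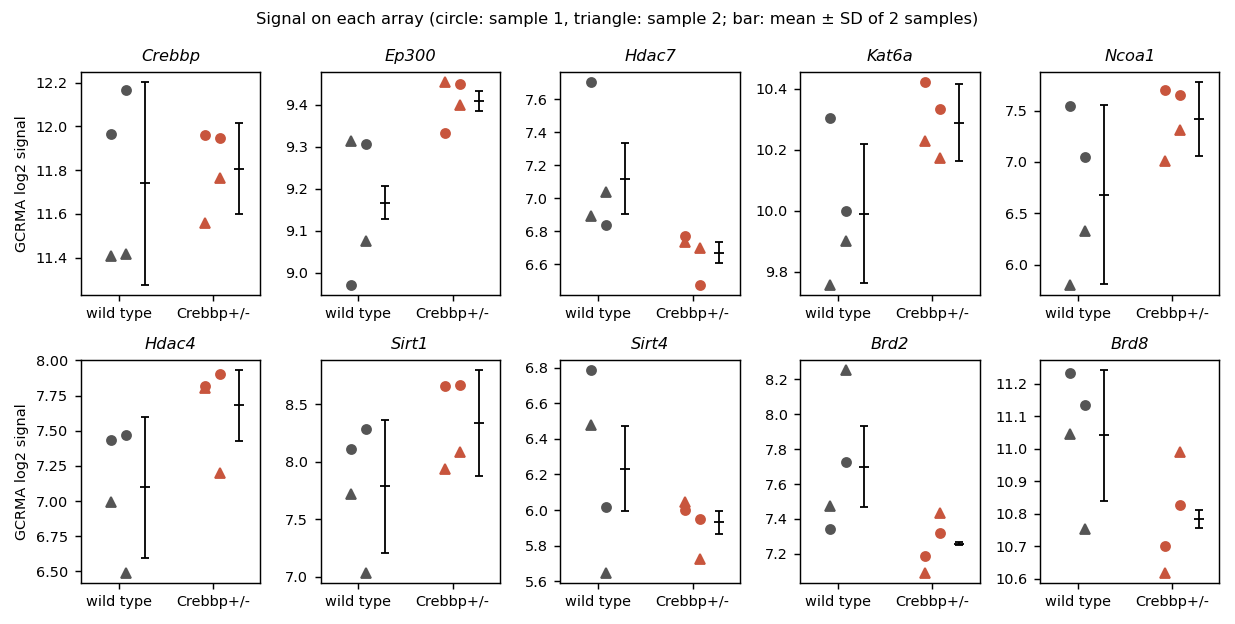
GCRMA log2 signal (vertical axis, a separate range in each panel that does not start at 0) of 10 genes on each of the 8 arrays, with circles for sample 1, triangles for sample 2, and a bar for the mean ± SD of the 2 samples of a genotype. Ep300 and Hdac7 are the 2 genes whose arrays do not overlap between genotypes, and the wild-type bars of Crebbp and Ncoa1 show SDs of 0.46 and 0.87.

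The list medians depended on single samples. Left out in turn, the 4 samples and 8 arrays gave medians from 0.071 to 0.28 for acetyltransferases and coactivators, among them the values without wild-type sample 1 (0.21) and without Crebbp+/- sample 2 (0.28). Zinc-dependent deacetylases, at -0.04 with all samples, ranged from -0.18 to 0.14, with 0.14 without Crebbp+/- sample 1. Sirtuins ranged from -0.14 to 0.068, with 0.068 without wild-type sample 2 and 0.021 without Crebbp+/- sample 1. Bromodomain and BRPF proteins ranged from -0.10 to 0.11. The median over all genes ran from 0.008 to 0.067 in the same fits.

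Comparison within each sample number showed which differences recurred. Of the 43 genes, 17 were higher in Crebbp+/- within both numbers (39.5%), against 37.2% of all genes, and 7 were lower within both (16.3%), against 24.7% of all genes. The other 19 took opposite signs. Of the 17 acetyltransferases and coactivators 9 were higher within both numbers and 0 lower. For zinc-dependent deacetylases the counts were 4 and 2 (3 and 2 without the unvarying Hdac11), for sirtuins 2 and 3, and for bromodomain and BRPF proteins 2 and 2. Across the 43 genes the differences within number 1 and within number 2 had a Pearson correlation of 0.194, and across all genes of 0.325, a description over genes that share arrays and are not independent.

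**Figure D3:**
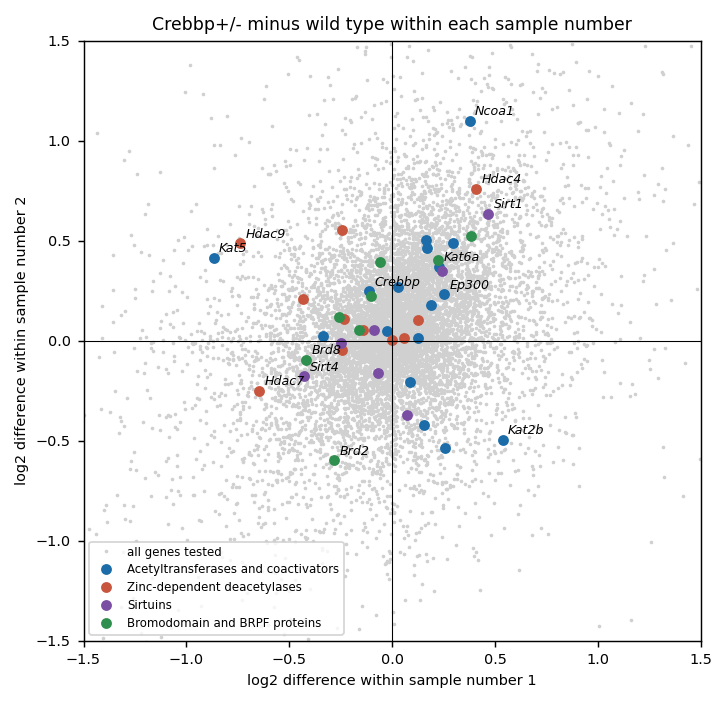
Log2 difference, Crebbp+/- minus wild type, for the samples numbered 1 (horizontal axis) and for the samples numbered 2 (vertical axis), with grey points for all genes tested and coloured points for the 43 genes by role; 140 genes, none of them among the 43, lie beyond the axis limits of -1.5 and 1.5. Ncoa1, Hdac4 and Sirt1 are in the upper right, Hdac7 and Brd2 in the lower left, and Kat5, Hdac9 and Kat2b have opposite signs.

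Several of these genes differed between samples 1 and 2 in the same direction in both genotypes. From sample 1 to sample 2, 20 of the 43 were lower in both genotypes (46.5%, against 34.0% of all genes), 11 were higher in both (25.6%, against 39.1%) and 12 were mixed. Sample 2 minus sample 1 was -1.23 for Ncoa1 in wild type and -0.51 in Crebbp+/-. In the same order Taf1 differed by -0.88 and -0.69, Brpf3 by -0.89 and -0.75, and Sirt1 by -0.82 and -0.65. In the other direction, Elp3 differed by 1.31 and 0.73, Kat2a by 0.80 and 1.16 and Sirt2 by 0.66 and 0.80. The Gapdh 5' signal and, in wild type, the hepatocyte genes moved with the same number, and their part in these gaps was not tested.

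Different probe sets of a gene did not always give the same direction. Of 94 probe sets for the 43 genes, 80 passed the filter, and 22 genes had more than 1 of these. In 14 of the 22 the tested probe sets differed in sign. The same share over all genes was not counted, so this is not shown to be particular to these genes. Kat6a had 0.30 at its brightest probe set and -0.79 (SE 0.30, limma adjusted p = 0.991) at a dimmer one, where all Crebbp+/- arrays were below all wild-type arrays and which read 4.72 and 5.09 in wild-type samples 1 and 2 and 4.33 and 3.90 in Crebbp+/-. Brd8 had 6 tested probe sets, with differences from -1.02 to 0.14. The lowest of these, chosen after its value was seen, read 6.46 and 6.96 in wild type and 5.90 and 5.48 in Crebbp+/-, a difference of -1.02 (SE 0.34). Its unadjusted p in limma was 0.0321 and its adjusted p 0.991. Taf1 had 0.39 and -0.61, Kat7 had 0.34 and -0.28, and Kat5 had -0.23 and 0.36. Kat2a had -0.16 at its brightest probe set and 0.07 and 0.21 at the others, and Elp3 had -0.13 and then 0.20 and -0.08. Clock had 4 tested probe sets from -0.83 to 0.10, and the one at -0.83 had an unadjusted limma p of 0.025 (adjusted p = 0.991). That probe set, also chosen after its value was seen, was dim, with Crebbp+/- arrays from 2.55 to 3.11. The 2 arrays of wild-type sample 2 read 4.92 and 3.11 there, and the arrays of the genotypes overlapped. The 37 tested probe sets other than the brightest of each gene were lower in Crebbp+/- in 22 cases and higher in 15, with a median of -0.05. For the dimmer probe sets of all genes these values were not counted. Ncoa1, Ncoa3, Hdac4, Brd3 and Brpf3 were higher and Hdac2, Hdac7 and Brd2 lower at each of their tested probe sets. Ep300 and Sirt1 each had a single probe set.

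**Figure D4:**
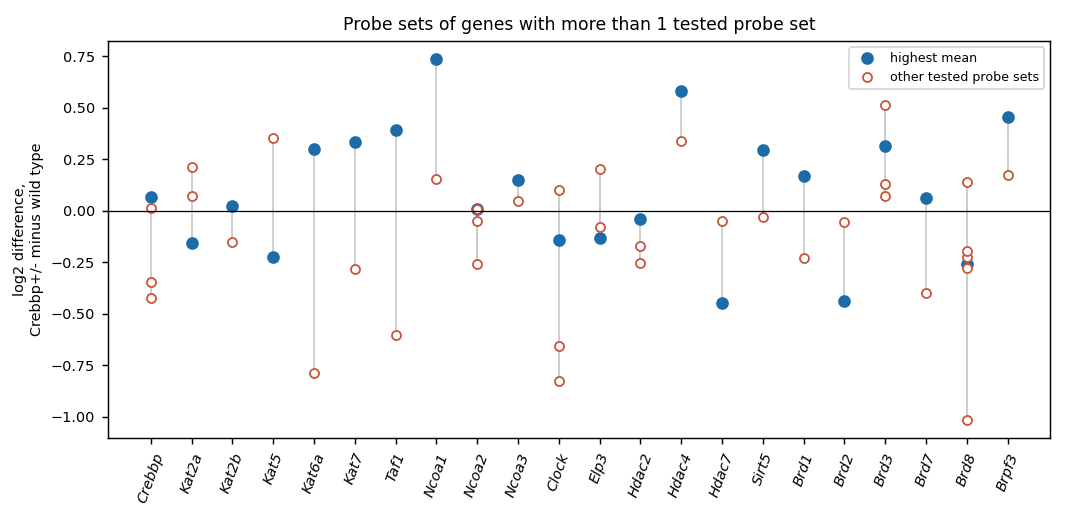
Log2 difference, Crebbp+/- minus wild type (vertical axis), of each tested probe set of the 22 genes with more than 1 (horizontal axis), with filled points for the probe set with the highest mean and open points for the others. The widest gaps are those of Brd8, from -1.02 to 0.14, and Kat6a, from -0.79 to 0.30.

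Partner genes of the same pathway gave a like picture. Of 81 listed subunits of acetyltransferase and corepressor complexes, other acetyl-lysine readers and acetyl-CoA enzymes, 76 were measured, and 0 passed the adjusted limma test. At an unadjusted limma p under 0.05 there was 1 gene higher and 1 lower, where 2.67% of all genes passed in either direction. The higher was Pbrm1, the polybromo subunit of PBAF, which read 9.43 and 8.94 in wild type and 9.90 and 9.77 in Crebbp+/-, a difference of 0.65 (SE 0.24, limma adjusted p = 0.991). The lower was Trim24, a bromodomain protein, which read 6.25 and 6.54 in wild type and 5.75 and 5.29 in Crebbp+/-, a difference of -0.88 (SE 0.32, limma adjusted p = 0.991). Pbrm1 was higher and Trim24 lower in both Crebbp+/- samples than in both wild-type samples. The next by p were Tada2b and Msl3, complex subunits, at 0.41 (SE 0.18) and 0.37 (SE 0.19), and in the other direction Acss2, which makes acetyl-CoA from acetate, at -0.65 (SE 0.30) and Ing4, a histone-binding subunit, at -0.87 (SE 0.62). Tada2b had a wild-type signal of 2.76, close to the filter. Ing4 read 2.705 in Crebbp+/- sample 2, below the filter, and its 2 arrays of a sample differed by 1.04 on average. Medians were 0.094 for 18 corepressor genes, 0.003 for 30 acetyltransferase complex subunits, -0.071 for 22 readers and 0.051 for 6 acetyl-CoA enzymes, against 0.042 over all genes.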

How the data were processed

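Total RNA of sorted fetal liver stem cells was measured on 8 Affymetrix mouse expression arrays. The deposited values are log2 signals made by the authors with GCRMA, per the submitters' processing notes, in 1 column per array; its version is not given in the sources used here, and GCRMA sets dim probe sets to nearly constant values. The median array signal was 2.65 to 2.70.

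The 2 arrays of a sample were averaged, since the labels do not say that they hold separate cells, leaving n = 2 per genotype. If the samples are not from separate litters, p-values measure technical spread. Probe sets with a mean above the median of 2.72 were tested (22518 of 45101 in the table, of which 64 were controls left out) with limma 3.58.1 in R 4.3.3 (intensity trend, Benjamini-Hochberg adjustment, threshold 0.05). Gene names came from the platform annotation: 34945 probe sets had 1 symbol, 932 several and 9160 none listed, and gene identifiers of 34741 matched the GRCm38.p6 table. A gene's value was its probe set with the highest mean. Per-sample values were given for Crebbp, Ep300, genes with an unadjusted p under 0.05 or with separated arrays, and the 2 with the lowest p per role; further genes were chosen after their values were seen. Genes whose probe sets differed in sign by more than 1 were also named. The procedure was tested on simulated data, where this design had little power at the adjusted threshold. The members and lists were chosen with earlier results of these data known. The 2 samples per genotype and the spread between them limit precision, and no scanner files were used here.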

Additional observations from a re-analysis of the deposited data

How the results depend on the processing

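There were 11 processing alternatives and 12 fits that left out 1 sample or array. In the alternatives and in the fits that left out 1 array, 0 of the 43 genes passed the adjusted limma test. The count over all genes tested was also 0 in each of these. Counts at an unadjusted limma p under 0.05 rose from 0 to 1 with each array taken as a sample, against 8.66% of all genes. They rose to 7 of 43 (16.3%) in a fit with a replicate block for the sample number, against 14.2% of all genes. The 7, all higher in Crebbp+/-, were Brpf3, Brd3, Sirt1, Taf1, Ncoa1, Hdac4 and Kat6a (limma adjusted p 0.19 to 0.268). Same-numbered samples deviated alike (correlation 0.55 over probe sets), but no label says what the number stands for, so the block is no design. That count ran from 0 to 1 with 1 sample or array left out. Genes with separated arrays numbered 1 of the 43 with centred arrays (2.33%, against 5.71% of all genes). With 1 sample or array left out they numbered 2 to 15 of the 43 (4.65% to 34.9%). The shares over all genes ran from 7.78% to 32.9% in the same fits, which compare fewer arrays. When the tested probe sets of each gene were averaged, the median was -0.054 over the 43 and -0.063 over bromodomain and BRPF proteins, and Crebbp and Kat6a turned to -0.174 and -0.246, as their dimmer probe sets averaged a negative difference. With 1 sample or array left out, medians ran from -0.025 to 0.098 over the 43, 0.071 to 0.28 for acetyltransferases, -0.178 to 0.135 for zinc-dependent deacetylases, -0.143 to 0.068 for sirtuins and -0.104 to 0.112 for bromodomain and BRPF proteins, and Crebbp from -0.26 without wild-type sample 2 to 0.395 without wild-type sample 1, with -0.079 without Crebbp+/- sample 1; the cause was not tested. A lone sample is there assumed to vary like the others. The direction held for 33 of the 43 genes under the processing alternatives that measured them and for 13 under every fit. Several alternatives change only the error model or the filter and keep the same difference, so the direction could not change there. The shares over all genes were not counted, so these counts are not a result about the 43. Over the upper 25% of probe sets 33 of the 43 were measured. Signal over background limits Hdac11.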
